A study of Mus musculus with 48 samples.

Results

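Neurofilaments, tau and other microtubule proteins make up the skeleton of the neuron, and 10 of their genes were followed by gene symbol among the 19962 targets of a mouse brain spatial transcriptomics table. They were the neurofilament subunits Nefl, Nefm and Nefh, the microtubule-associated proteins Mapt (tau), Map2, Map1a and Map1b, the tubulins Tubb3 and Tuba1a, and the tubulin-binding stathmin Stmn2. All 10 were in the table. The assay was GeoMx digital spatial profiling, in which probes bound to RNA release sequenced tags from chosen areas of a tissue section. The columns were headed 5xFAD-LynKO (5 regions), 5xFAD (5 regions) and WT (6 regions), all from frozen sections of perfusion-fixed brain. 5xFAD mice carry mutant human transgenes under the neuronal Thy1 promoter and deposit amyloid, and the 5xFAD-LynKO mice carry the same transgenes on a knockout of Lyn, a Src-family kinase of myeloid cells. WT mice carry neither. The sources used here give no ages, sexes or animal numbers. Since the series names microglial expression in these genotypes as its subject, the columns were read as segments positive for TMEM119, a microglial surface protein, although no heading names a marker. Each slice had 6 regions by the series' design text, so several regions may come from 1 animal, which would make all p-values in this text too small. WT had 6 columns, so all of them may come from 1 slice. If each genotype came from 1 slice, genotype could not be told apart from slice or animal in any test here.

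Neurofilaments are heteropolymers of a light, a medium and a heavy chain, encoded by Nefl, Nefm and Nefh, that fill large axons and set their calibre. The light chain is released into cerebrospinal fluid and blood when axons are injured. Microtubules are polymers of alpha- and beta-tubulin. Tau binds them mainly in axons and MAP2 mainly in dendrites, and hyperphosphorylated tau forms the tangles of Alzheimer's disease. These proteins are made chiefly by neurons, so their signal in an area chosen for microglia comes from a labelled area that may also cover neuronal processes and cell bodies. In such bulk areas, fewer cells of a type and less RNA per cell cannot be told apart.

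The regions differed in depth and in microglial marker RNA. By genotype means, most microglial markers were near background under 5xFAD-LynKO and 5xFAD but not under WT. The probe counts implied by each column, if 1 step of its values is 1 count, were 3207094 to 5793533 under 5xFAD-LynKO, 3205406 to 4148785 under 5xFAD and 1194248 to 2548601 under WT. The negative control probe, which matches no mouse RNA and measures background, was 0.911 to 0.968 times the median target under 5xFAD-LynKO, 0.933 to 0.957 under 5xFAD and 0.859 to 0.918 under WT. Tmem119 itself lay between 0.685 and 0.969 times the negative probe as a mean of each genotype. Of 16 microglial markers, 1 had a mean over 1.5 times the negative probe under 5xFAD-LynKO, 1 under 5xFAD and 11 under WT, and their summed level was 16.7 to 17.7 times the median under 5xFAD-LynKO, 17.0 to 20.0 under 5xFAD and 20.7 to 45.8 under WT. Of 14 pan-neuronal markers, 12 exceeded that multiple under 5xFAD-LynKO, 11 under 5xFAD and 11 under WT, with sums of 25.4 to 70.6 under 5xFAD-LynKO, 31.2 to 59.0 under 5xFAD and 36.7 to 83.5 under WT. No marker was at 0. The part of these differences in any result below was not tested. The Lyn probe averaged 1.21 times the negative probe under 5xFAD-LynKO, 1.15 under 5xFAD and 1.30 under WT, so it could not check the headings.

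Levels below are times the column's median target, so that 1 is close to background. Above background means a signal over 1.5 times the negative probe in 5 or more of the 16 columns. Of the 10 genes, 9 passed, and Nefh did not. Relative to the negative probe, the means over all 16 regions were 2.76 for Nefl, 2.17 for Nefm, 1.26 for Nefh, 1.98 for Mapt, 2.58 for Map2, 3.33 for Map1a, 2.51 for Map1b, 2.15 for Tubb3, 1.98 for Tuba1a and 2.04 for Stmn2. These ratios belong to different probes and do not order the genes by abundance. Nefl and Map1a exceeded 1.5 times the negative probe in all 16 regions, and Nefh did in 2.

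**Figure D1:**
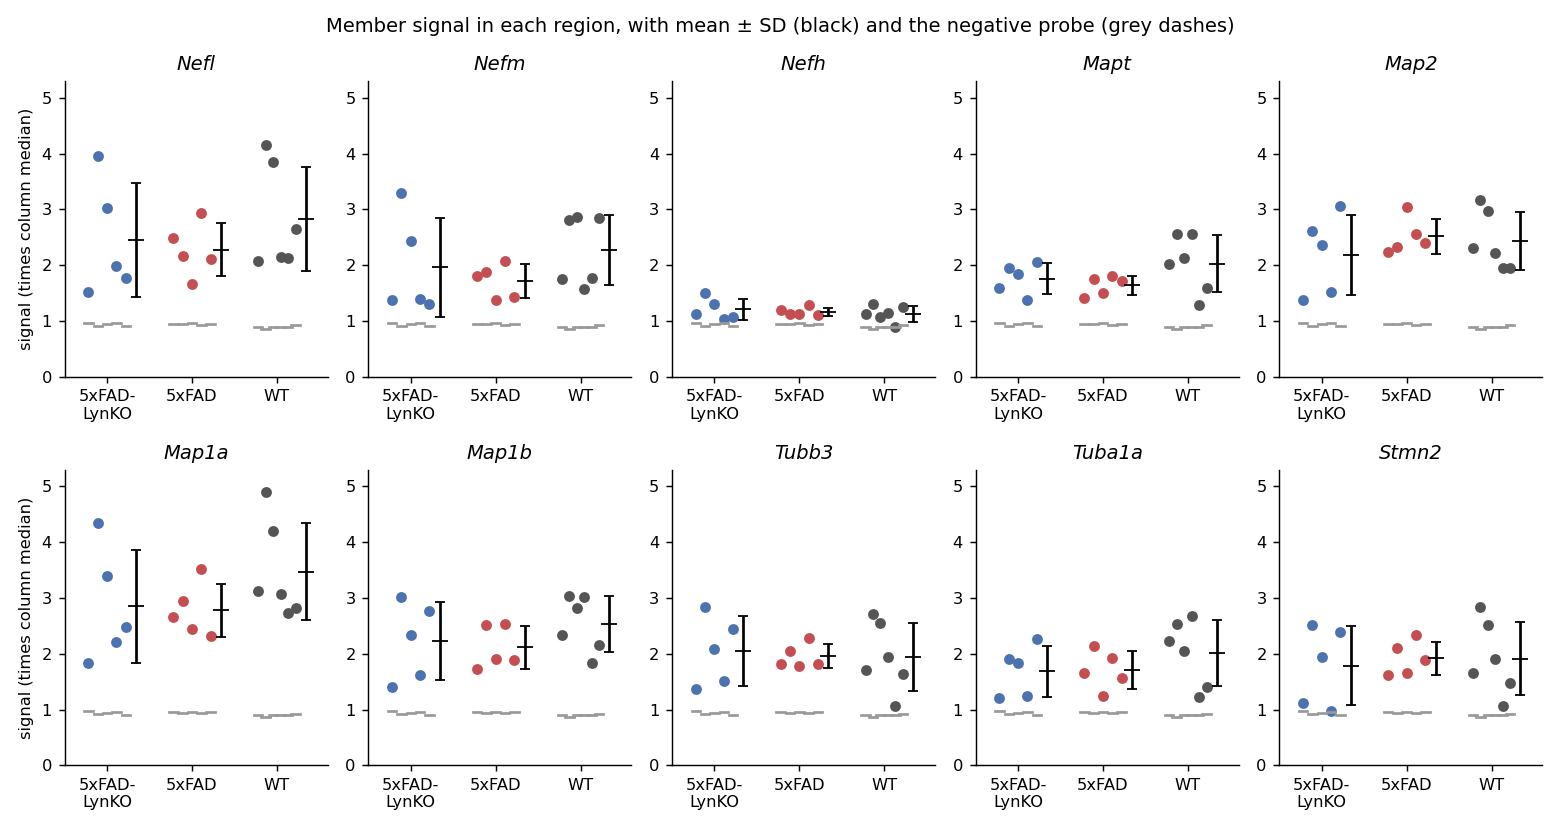
Signal of each gene in every region (times the column median, y axis), by genotype, with mean ± SD in black and each region's negative probe as a grey dash. The genotypes overlap for all 10 genes, and Nefh sits close to the negative probe.

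Nefl, the light chain, was the neurofilament furthest above background and varied more between regions than between genotypes. Its signal was 1.51, 3.95, 3.03, 1.98 and 1.77 times the median in the 5 5xFAD-LynKO regions. In the 5 5xFAD regions it was 2.49, 2.16, 1.67, 2.94 and 2.11. In the 6 WT regions it ran from 2.07 to 4.15 with a median of 2.40. The highest values were in WT regions 2 and 3 and in 5xFAD-LynKO region 2, and the lowest was in 5xFAD-LynKO region 1, so the 3 groups overlapped. The 5xFAD-LynKO mean was 2.45 ± 1.02 (SD, n = 5), the 5xFAD mean 2.27 ± 0.473 (SD, n = 5) and the WT mean 2.83 ± 0.934 (SD, n = 6). The log2 difference was -0.28 ± 0.22 (SE) for 5xFAD against WT, with a limma adjusted p of 0.404, and -0.24 ± 0.22 for 5xFAD-LynKO against WT, with an adjusted p of 0.757. Between 5xFAD-LynKO and 5xFAD it was 0.04, with a 95% interval of -0.42 to 0.50.

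Nefm, the medium chain, had the lowest estimate of the 10 genes for 5xFAD against WT. Its 5xFAD-LynKO values were 1.38, 3.30, 2.42, 1.39 and 1.31, of which 3 lay close together and 2 stood well above them. The 5xFAD values were 1.81, 1.87, 1.38, 2.08 and 1.42, and the WT values ran from 1.57 to 2.86 with a median of 2.29. The WT range overlapped those of both other groups. The difference for 5xFAD against WT was -0.37 ± 0.20 log2 (SE), or 0.773-fold with a 95% interval of 0.581 to 1.03, and did not pass (limma adjusted p = 0.216). With the negative probe subtracted first, the same difference was -0.81 with an interval of -1.93 to 0.31. For 5xFAD-LynKO against WT it was -0.26, with an interval of -0.68 to 0.15.

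Nefh, the heavy chain, whose long phosphorylated tail projects from the filament, was barely detected. The 5xFAD-LynKO regions averaged 1.21 ± 0.195 (SD, n = 5), the 5xFAD regions 1.16 ± 0.0716 (SD, n = 5) and the WT regions 1.13 ± 0.145 (SD, n = 6). Its highest value, 1.5, was in 5xFAD-LynKO region 2, where Nefl and Nefm were also highest among the 5xFAD-LynKO regions. No difference in Nefh was detectable so close to background, and its intervals reached from -0.15 to 0.25 for 5xFAD against WT.

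Mapt, which encodes tau, had signals of 1.59, 1.94, 1.84, 1.37 and 2.05 in the 5xFAD-LynKO regions. It was 1.40, 1.75, 1.5, 1.81 and 1.72 in the 5xFAD regions and ran from 1.29 to 2.56 with a median of 2.07 in the WT regions. The WT regions held both the highest and the lowest tau values of the series. The difference for 5xFAD against WT was -0.27 ± 0.14 log2 (SE), or 0.831-fold with an interval of 0.678 to 1.02, and did not pass (limma adjusted p = 0.212). Leaving out WT region 5, the lowest, brought it to -0.39 with an adjusted p of 0.0484, so the call depended on that region. For 5xFAD-LynKO against WT it was -0.17, with an interval of -0.46 to 0.12, and for 5xFAD-LynKO against 5xFAD 0.10, with an interval of -0.21 to 0.40.

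Map2, the dendritic microtubule-associated protein, had signals of 1.38, 2.61, 2.36, 1.51 and 3.06 under 5xFAD-LynKO. Under 5xFAD they were 2.23, 2.33, 3.05, 2.56 and 2.40, a narrow range that lay inside that of 5xFAD-LynKO. Under WT they ran from 1.95 to 3.17 with a median of 2.27. Its estimate was the lowest of the 10 for 5xFAD-LynKO against 5xFAD, at -0.26 ± 0.18 log2 (SE), and it did not pass (limma adjusted p = 0.643, interval -0.64 to 0.12). For 5xFAD against WT it was 0.07, with an interval of -0.29 to 0.43. Quantile normalization, which forces all columns to 1 distribution, raised that value to 0.38 with an adjusted p of 0.0482.

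Map1a and Map1b encode large microtubule-associated proteins of mature and of growing neurites. Map1a was 1.83, 4.35, 3.39, 2.22 and 2.47 under 5xFAD-LynKO, 2.67, 2.95, 2.44, 3.52 and 2.32 under 5xFAD, and 2.73 to 4.90 with a median of 3.10 under WT. It reached its highest values in WT region 2 and 5xFAD-LynKO region 2, as Nefl did. Map1b was 1.40, 3.03, 2.33, 1.63 and 2.76 under 5xFAD-LynKO, 1.72, 2.52, 1.90, 2.54 and 1.90 under 5xFAD, and 1.84 to 3.04 with a median of 2.58 under WT. The Map1b groups overlapped over most of their range. The difference for 5xFAD against WT was -0.30 ± 0.20 log2 (SE) for Map1a and -0.25 ± 0.18 for Map1b, with limma adjusted p of 0.333 and 0.348. The difference for 5xFAD-LynKO against WT was -0.31 for Map1a and -0.22 for Map1b, and the intervals of -0.73 to 0.10 and -0.58 to 0.14 both held 0.

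Tubb3 encodes the beta-tubulin that marks neurons, and Tuba1a the main alpha-tubulin of developing neurons. Tubb3 was 1.37, 2.84, 2.08, 1.52 and 2.45 under 5xFAD-LynKO, 1.82, 2.06, 1.78, 2.28 and 1.82 under 5xFAD, and 1.07 to 2.71 with a median of 1.83 under WT. The 5xFAD regions were the most alike, and the lowest value, in WT region 5, was close to background. Tuba1a was 1.21, 1.90, 1.84, 1.24 and 2.27 under 5xFAD-LynKO, 1.66, 2.14, 1.24, 1.92 and 1.57 under 5xFAD, and 1.22 to 2.67 with a median of 2.14 under WT. Tuba1a has near-identical paralogues, and whether its probe also binds their RNA was not tested. The difference for 5xFAD against WT was 0.07 for Tubb3, with an interval of -0.31 to 0.45, and -0.20 for Tuba1a, with an interval of -0.58 to 0.17. For 5xFAD-LynKO against WT the values were 0.10 and -0.24, and neither passed (limma adjusted p of 0.895 and 0.710).

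Stmn2, or SCG10, binds tubulin dimers and is used in growing and regenerating axons. It was 1.12, 2.51, 1.95, 0.978 and 2.39 under 5xFAD-LynKO, 1.62, 2.11, 1.66, 2.33 and 1.88 under 5xFAD, and 1.07 to 2.84 with a median of 1.79 under WT. Of the 5xFAD-LynKO regions, 2 were near background and 3 well above it, and the 5xFAD regions all lay inside the 5xFAD-LynKO range. The difference was 0.07 for 5xFAD against WT, with an interval of -0.38 to 0.51, and -0.19 for 5xFAD-LynKO against 5xFAD, with an interval of -0.65 to 0.27.

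**Figure D2:**
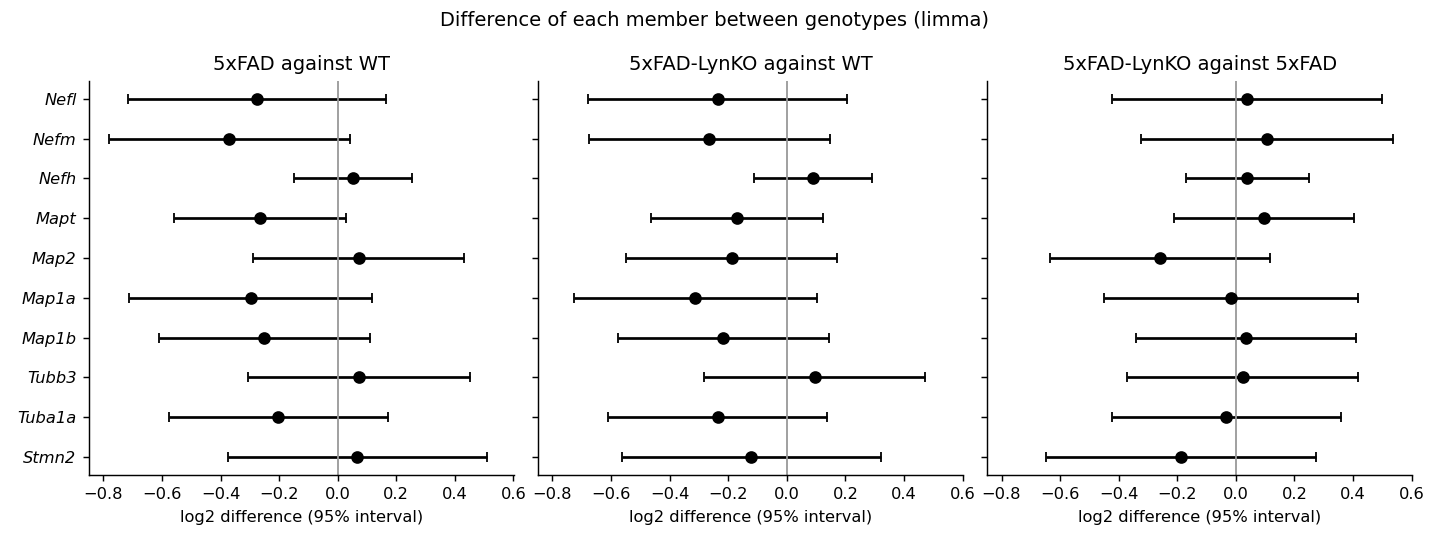
Log2 difference of each gene (x axis) with its 95% interval from limma, 1 panel per comparison. Every interval holds 0, and they reach from -0.78 to 0.51 for 5xFAD against WT.

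Across the 3 comparisons no gene of the 10 passed the test, in a fit over all 19960 targets with a limma adjusted p under 0.05. For 5xFAD against WT, 0 of 10 passed against 14.2% of all targets (8.23% lower and 5.99% higher), with 0 of 10 at an unadjusted p under 0.05 and a smallest adjusted p of 0.212. The median difference was -0.23 and 6 of 10 estimates were below 0, while among the 3363 targets above background the median was -0.16 and 84.0% were below 0. The latter values are partly set by the above-background rule, which WT columns alone can meet. With negative-probe scaling the members' median was -0.31 (10 of 10 below 0), against -0.08 for all targets. With the negative probe subtracted it was -0.47 against -0.18, and with the pan-neuronal level as a covariate -0.04 against 0.01. Medians of targets above background were taken only in the main fit. For 5xFAD-LynKO against WT, 0 of 10 passed against 0.0601% of all targets (0.0551% lower and 0.00501% higher), the median was -0.20 with 8 of 10 below 0, and the median of the targets above background was -0.09. For 5xFAD-LynKO against 5xFAD, 0 of 10 passed and 0% of all targets did, although 2255 targets had an unadjusted p under 0.05. The members' median there was 0.03, against 0.07 for targets above background. The groups overlapped for 10 of 10 genes in every comparison, while the share of all targets whose groups did not overlap was 5.04% in 5xFAD against WT, 0.621% in 5xFAD-LynKO against WT and 2.69% in 5xFAD-LynKO against 5xFAD. The intervals left room for changes of up to 1.72-fold lower and 1.42-fold higher for 5xFAD against WT, and of up to 1.57-fold lower and 1.45-fold higher for 5xFAD-LynKO against 5xFAD. Values on the deposited scale gave other signs, because that scale sets 1 median per genotype: all targets then shifted by a median of 0.88 log2 for 5xFAD against WT and 1.17 for 5xFAD-LynKO against WT.

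The ratio of 2 genes in the same region does not depend on the scaling between columns. Of 18 such tests (6 pairs in 3 comparisons), 0 passed after Benjamini-Hochberg adjustment. The lowest raw p, 0.0346 in an exact two-sided permutation test over all splits of the regions, was reached by 2 of them and became 0.312 after adjustment. One was tau over Map2, with a log2 ratio of -0.62 ± 0.24 under 5xFAD (SD, n = 5) and -0.28 ± 0.27 under WT (SD, n = 6). The other was Stmn2 over Tubb3, at -0.24 ± 0.24 under 5xFAD-LynKO (SD, n = 5) and -0.03 ± 0.071 under WT (SD, n = 6). Its lowest 5xFAD-LynKO value was -0.63 in region 4, where Stmn2 was 1.02 times the negative probe, and the others ran from -0.28 to -0.04. A ratio with a target so near background is limited by that background. Nefm over Nefl, 2 chains of the same filament, was -0.33 ± 0.15 under 5xFAD-LynKO, -0.40 ± 0.16 under 5xFAD and -0.31 ± 0.24 under WT. The differences in that ratio were at most 0.10 log2 in size, and 0 of 3 passed.

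The 10 genes varied widely between regions of 1 genotype. Their median standard deviation within a genotype was 0.384 log2, against 0.504 for the 14 pan-neuronal markers and 0.175 for all targets above background, and the counting error of their probes was 0.075 to 0.122. Genotype accounted for 1.34% (Tubb3) to 16.3% (Map1a) of the squared deviations of a gene. The median was 9.36% for the 10 genes, against 19.2% for all targets above background. Some share arises by chance with so few regions, so these are not genotype effects. All 10 genes lay above their genotype's mean in 5xFAD-LynKO regions 2 and 3, 5xFAD region 4 and WT region 2. All 10 lay below it in 5xFAD-LynKO regions 1 and 4 and in WT region 5.

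**Figure D3:**
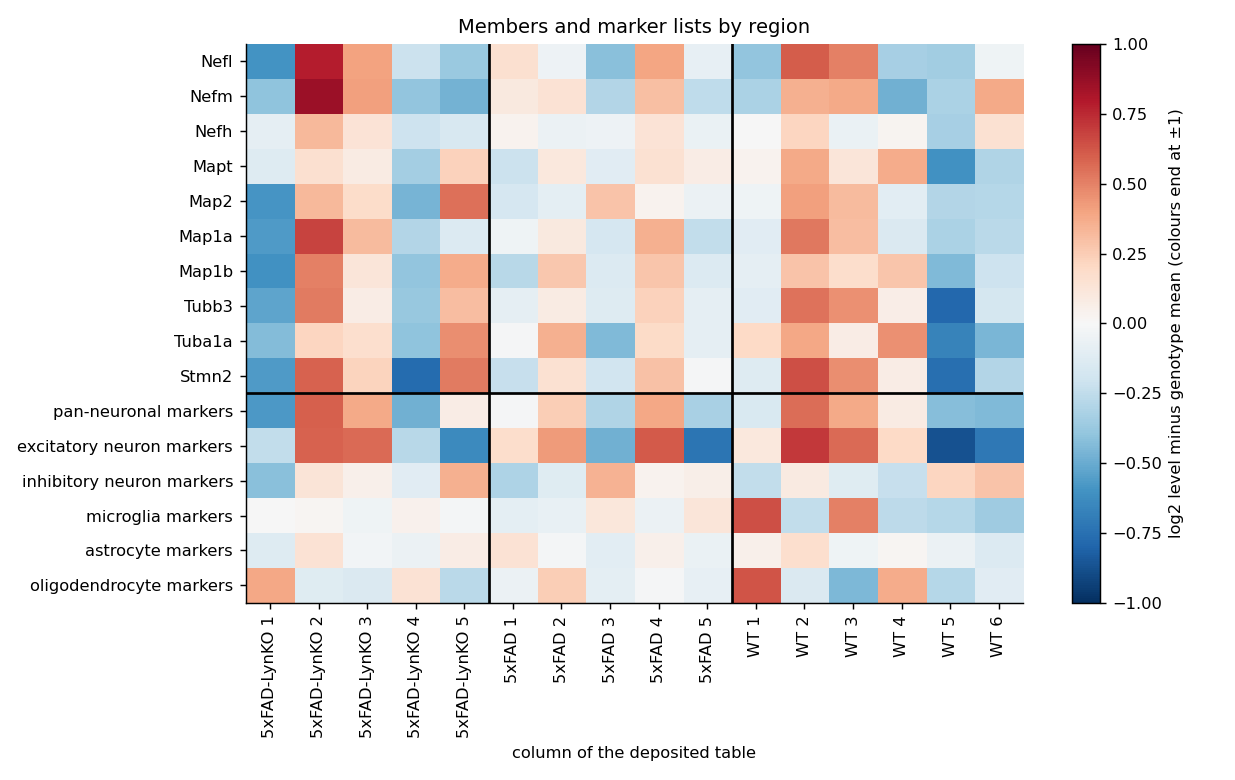
Log2 level minus the genotype mean (colour, ending at ±1) of the 10 genes and of 6 marker lists, by region. Most of the 10 genes are high in the same regions as the pan-neuronal markers, such as WT region 2, and low in the same regions, such as 5xFAD-LynKO region 1.

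The genes moved together from region to region. With each genotype's mean removed, Pearson's r over the 16 regions had a median of 0.71 over the 45 pairs of genes, as a description without a test, since regions share slides, depth and possibly animals. The closest pairs were Tubb3 and Stmn2 (0.96), Map1b and Stmn2 (0.92), Nefl and Map1a (0.92), and Nefl and Nefm (0.91). The lowest values were those of Nefm with Mapt (0.22), with Tuba1a (0.23) and with Map2 (0.36). Nefl and Nefm are neighbours on chromosome 14, with 0 protein-coding genes between them in the RefSeq annotation. The pairing of Nefl with Nefm fell to 0.88 without the 2 regions farthest from the middle.

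**Figure D4:**
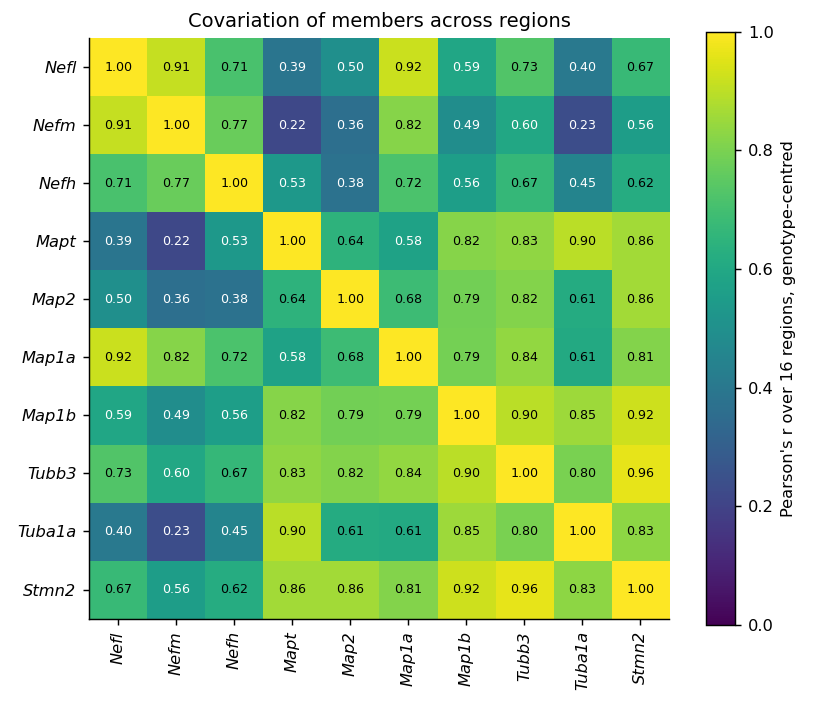
Pearson's r between genes over the 16 regions after removal of the genotype means (colour and number). The highest value is 0.96 for Tubb3 and Stmn2, and the lowest is 0.22 for Nefm and Mapt.

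Pan-neuronal markers followed the same pattern. The mean of the 14 pan-neuronal markers correlated with Map1a at 0.95, with Stmn2 at 0.89 and with Nefh at 0.65, the range of the 10 genes. Excitatory neuron markers, such as those for glutamate vesicle loading, were closer to Nefl (0.73) and Map1a (0.82) than to Map2 (0.36). With inhibitory neuron markers r ran from -0.12 (Tuba1a) to 0.52 (Map2). Over all 16 regions the covariation was not confined to neuronal markers, since r with astrocyte markers ran from 0.35 (Nefm) to 0.70 (Tuba1a). Without the 2 regions farthest from the middle of each marker profile, r with astrocyte markers ran from -0.00057 (Nefm) to 0.68 (Tuba1a). The r with pan-neuronal markers then ran from 0.55 (Nefh) to 0.94 (Map1a). Tuba1a was closer to astrocyte than to excitatory markers (0.65). The r with oligodendrocyte markers ran from -0.51 (Map2) to 0.12 (Tuba1a) over the 10 genes. The log2 ratio of Nefl to Map2 ranged from -0.79 to 0.60 under 5xFAD-LynKO, from -0.87 to 0.20 under 5xFAD and from -0.16 to 0.44 under WT. Its 2 lowest values were in 5xFAD region 3 and 5xFAD-LynKO region 5. The targets most like the mean of the 10 genes, among 3354 others above background with a median r of 0.46, included Eif4g1 (0.98), Nsf (0.98), Snrpn (0.97), Rad23b (0.96), Sncb (0.96), Kif1a (0.96), Pgam1 (0.96), Eef1a2 (0.96) and Rtn3 (0.96).

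Upstream sequences are shown for Map1b, Tubb3 and Tuba1a, which moved together across regions (r of 0.80 to 0.90). They are the 250 bases before the start in RefSeq (GRCm38.p6), 5′ to 3′ on the gene's strand, and capitals mark TATAA (the core of a TATA box), GGGCGG (the core of a GC box) and the CCAAT box, or their reverse complements, with overlapping matches joined. Of the 10 genes, 5 were in the promoter table, and Nefl, Nefm, Nefh, Mapt and Stmn2 were not.
Map1b, chr13:99516603-99516852, minus strand: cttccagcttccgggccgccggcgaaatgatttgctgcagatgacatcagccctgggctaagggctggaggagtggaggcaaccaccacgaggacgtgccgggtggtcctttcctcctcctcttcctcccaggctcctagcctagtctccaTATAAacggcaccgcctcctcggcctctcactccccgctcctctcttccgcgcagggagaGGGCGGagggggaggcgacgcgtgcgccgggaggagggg
Tubb3, chr8:123411303-123411552, plus strand: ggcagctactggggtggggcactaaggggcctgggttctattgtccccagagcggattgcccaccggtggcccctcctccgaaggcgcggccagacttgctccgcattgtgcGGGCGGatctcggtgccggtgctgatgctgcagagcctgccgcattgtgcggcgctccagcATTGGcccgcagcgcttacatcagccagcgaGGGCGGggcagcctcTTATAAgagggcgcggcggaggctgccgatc
Tuba1a, chr15:98953502-98953751, minus strand: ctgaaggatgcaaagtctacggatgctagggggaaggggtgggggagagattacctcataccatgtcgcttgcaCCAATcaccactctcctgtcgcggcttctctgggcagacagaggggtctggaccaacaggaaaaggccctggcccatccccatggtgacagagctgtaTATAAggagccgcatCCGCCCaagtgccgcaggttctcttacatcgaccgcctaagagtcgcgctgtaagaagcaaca
TATAA on either strand stood in 3 of the 5 matched genes, namely the 3 shown, beginning 99 (Map1b), 30 (Tubb3) and 78 (Tuba1a) bases before the start, and in 22.8% of 32851 promoters of this length. GGGCGG stood in 5 of the 5 matched genes and in 32.7% of all promoters, and CCAAT in 3 of 5 and in 33.9%. The 5 sequences held 56.8% (Tuba1a) to 81.2% (Map2) G and C, against a median of 52.4% over all promoters. The shares of all promoters make no allowance for this. Map2, with 81.2% G and C, held GGGCGG 5 times, and neither Map2 nor Map1a held TATAA. A match is a description of letters and not evidence of a bound factor.

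Other genes of the cytoskeleton were set beside these 10 in 8 lists of 122 measured targets. For 5xFAD against WT, 9 of the 122 fell and 0 rose (limma adjusted p under 0.05), against 8.23% lower and 5.99% higher of all targets, so the share that fell was near the background. Of the 61 of them above background, 5 fell, or 8.20%, against 18.2% of all targets above background. Both shares are partly set by the above-background rule, which WT columns alone can meet, so their difference is not read as a result. Among these 5, means under 5xFAD included 1.09 for Vash2, 1.11 for Tubb6, 1.22 for Ttll7 and 2.35 for Sptbn1, in multiples of the negative probe. The 11 astrocyte markers, Gfap included, summed to 18.3 to 24.1 times the median under 5xFAD and 25.5 to 35.5 under WT, and Gfap alone averaged 1.23 times the negative probe under 5xFAD and 3.93 under WT. Of 12 oligodendrocyte markers, 3 fell, and they summed to 15.4 to 21.2 under 5xFAD and 15.4 to 46.5 under WT. The part of these cells in the 9 calls was not tested. The list of tubulin folding, severing and modification had 5 of 20 lower, the other tubulins 3 of 10, and axon growth and collapsin response proteins 1 of 14. The other stathmins, intermediate filaments, microtubule-binding proteins, tau kinases and phosphatases, and kinesin and dynein motors had 0. For 5xFAD-LynKO against WT and against 5xFAD, 0 of 122 passed. These lists were chosen with earlier results of these data known.

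Tubulin-modifying enzymes were among those that fell. Ttl, which adds back the tyrosine at the end of alpha-tubulin, was 0.827 ± 0.045 under 5xFAD (SD, n = 5) and 1.09 ± 0.078 under WT (SD, n = 6), a change of -0.39 ± 0.077 log2 (SE), with a limma adjusted p of 0.00273. Ttll7, a polyglutamylase of tubulin, was 1.16 ± 0.14 under 5xFAD and 1.56 ± 0.061 under WT, a difference of -0.44 (adjusted p = 0.00375). Vash2, a tubulin detyrosinating enzyme, was 1.03 ± 0.14 and 1.42 ± 0.22 in the same groups, a difference of -0.45 (adjusted p = 0.00535). Under 5xFAD these sat at 0.874, 1.22 and 1.09 times the negative probe, so all 3 values were close to or below background there. Under 5xFAD-LynKO the 3 enzymes averaged 0.964, 1.44 and 1.37, and no difference from WT or 5xFAD passed.

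Of the other tubulins, the gamma-tubulins Tubg1 and Tubg2, which nucleate microtubules, and the beta-tubulin Tubb6 fell in 5xFAD against WT, by 0.43, 0.33 and 0.41 log2. Tubg1 and Tubg2 stood at 0.873 and 0.979 times the negative probe under 5xFAD. Sptbn1, a beta-spectrin of the membrane skeleton, was at 2.22 ± 0.34 under 5xFAD and 3.13 ± 0.49 under WT, a difference of -0.49 (adjusted p = 0.0345), and was well above background in both. The tubulin folding cofactors Tbcc and Tbca also passed, with differences of -0.33 and -0.29, and were named after their values were seen. Under the alternatives other than the deposited scale, Tbca passed in 10 of 29 settings, Tbcc in 14 of 28 and Sptbn1 in 20 of 29, with Sptbn1 lost under quantile normalization (adjusted p = 0.226). The abundant tubulins that did not pass included Tuba1b at -0.21 and Tubb5 at -0.33 (adjusted p of 0.551 and 0.0779). Leaving out WT regions 1 and 3 together, which held the highest microglial signals, left 4 of the 9 calls, Ttl, Ttll7, Vash2 and Tubg1. The count of lower genes was 15 without WT region 5, 18 without 5xFAD region 4 and 5 without 5xFAD region 5. The share of all targets that were lower in these settings is not given here, so the changes in count are not results about these genes.

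**Figure D5:**
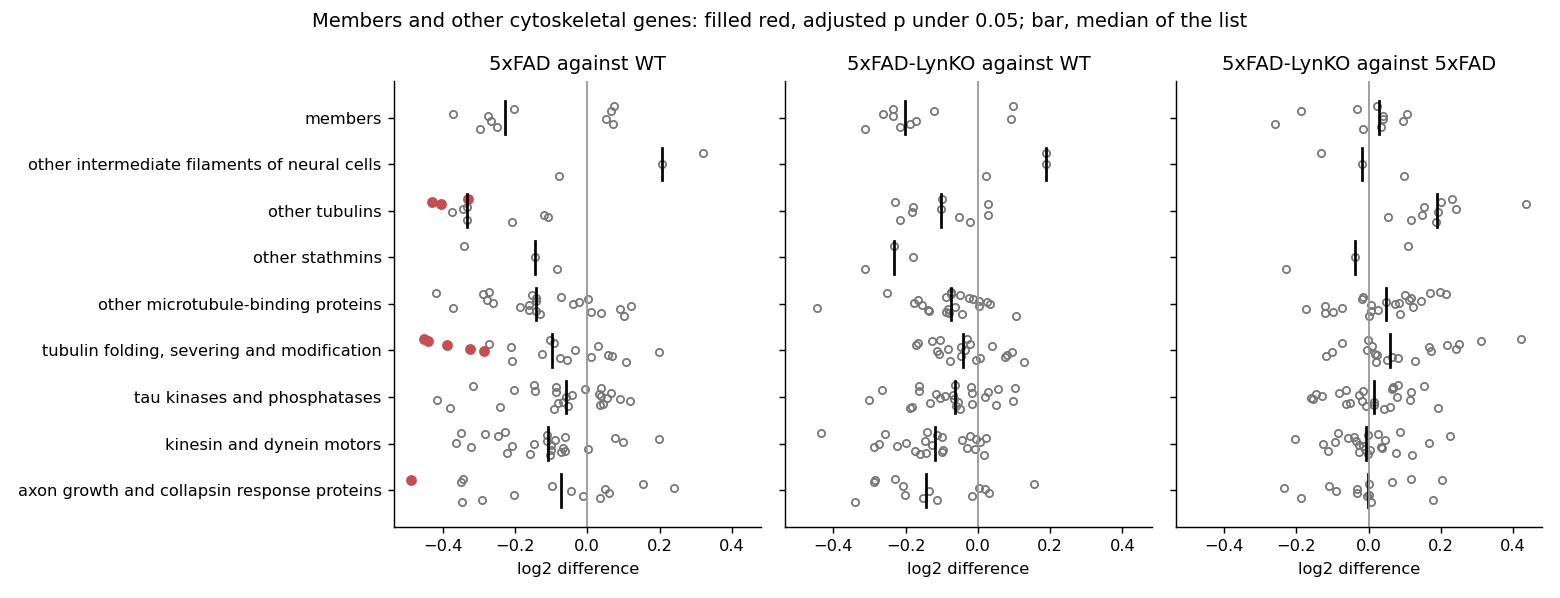
Log2 difference (x axis) of the 10 genes, shown as members, and of each gene in 8 other cytoskeletal lists, with the list median as a bar and filled red points where the limma adjusted p was under 0.05. In 5xFAD against WT, 9 points are red and all lie below 0.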

How the data were processed

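RNA was measured with GeoMx probes in regions of mouse brain sections, per the labels' protocols. The authors deposited 1 table of signal values, with no normalization or software named in the sources used here. Dividing a column by its smallest common step gave whole numbers within 0.01 in 19959 or 19960 of 19963 rows. The smallest value was 9 to 66 steps, so that 1 step is 1 count was assumed and not shown. All columns of 1 genotype had the same deposited median, which was not that of the other genotypes, so log2(value + 1) minus the column median was used. Groups came from column headings, and p-values measure the spread between regions. The members and gene lists were chosen with earlier results of these data known.

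Differences were fitted in R 4.3.3 by limma 3.58.1, using lmFit, contrasts and a trended eBayes, over 19960 targets in all 16 columns, without the negative probe, Tmem119 and Gfap, and adjusted by Benjamini-Hochberg. Ratios were tested by exact permutation over all splits of the regions, with code checked against scipy 1.17.1 on random values. Intervals are 95%. Implied counts limit precision through counting error only, and the depths are in the report as ranges. Named genes were all members, up to 3 passing and 2 abundant genes of each list, and the 10 targets most like the members, of which 1 is not reported here. Pairs of columns within a genotype differed by 1.16 to 6.64 chi-square per degree of freedom, so none were merged. The alternatives were other scalings, background subtraction, filters, pseudocounts, weights, a block by heading number, a neuronal covariate and left-out columns. Steps were tested on simulated data.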

Additional observations from a re-analysis of the deposited data

Results flagged for a closer look

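None of the 30 groups of values (10 genes in 3 genotypes) held a region that stood apart from the rest by Dixon's criterion at 95%, where chance would give about 1 in 20.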

How the results depend on the processing

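Of the alternatives to median scaling, the values as deposited changed most, since they keep the shift between genotypes (a median over all targets of 0.88, 1.17 and 0.30 log2 for 5xFAD against WT, 5xFAD-LynKO against WT and 5xFAD-LynKO against 5xFAD). They called 10, 10 and 2 of the 10 members as higher in these comparisons. The share of all targets called on that scale is not given here, so these counts are not a result about the members. For 5xFAD against WT the differences turned to 0.60 for Nefl, 0.50 for Nefm, 0.60 for Mapt, 0.57 for Map1a, 0.62 for Map1b and 0.67 for Tuba1a. For 5xFAD-LynKO against WT they turned to 0.93 for Nefl, 0.90 for Nefm, 1.00 for Mapt, 0.98 for Map2, 0.86 for Map1a, 0.95 for Map1b, 0.93 for Tuba1a and 1.05 for Stmn2. The other genes turned to 0.48 (Ttl), 0.43 (Ttll7), 0.42 (Vash2), 0.44 (Tubg1), 0.47 (Tubb6), 0.54 (Tubg2), 0.38 (Sptbn1), 0.55 (Tbcc) and 0.59 (Tbca), and 0 of 122 were then lower. This follows from the construction of that scale and does not test direction.

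For the members, quantile normalization called 1 (Map2, 0.38) in 5xFAD against WT, and leaving out 1 column gave 0 to 1 calls there and 0 in the other comparisons. Outside the deposited scale, the estimates, counted per gene and setting, kept their sign in 121 of 129 for 5xFAD against WT, 128 of 129 for 5xFAD-LynKO against WT and 121 of 129 for 5xFAD-LynKO against 5xFAD. Leaving out 1 column kept it in 156, 155 and 137 of 160. Part of these signs could not change. The group means of the main fit were also used without a mean trend, with only the compared groups, and with only targets above background. Leaving out a column of the genotype not compared also left an estimate as it was. The ratio tests gave 0 of 18 under every setting run. The 9 lower cytoskeletal genes became 22 with negative-probe scaling, 19 with array weights, 4 with targets above background only, 4 without WT regions 1 and 3, and 5 to 18 when 1 column was left out. Outside the main fit, the share of all targets that were lower is not given here. Whether these counts moved apart from that share was not tested. Ttl, Tubg1, Tubg2 and Tbcc were not above background, so they were absent from the fit of targets above background. The cause of the other changes was not tested. Whether heading numbers pair regions was not settled. The r of same-numbered columns ran from -0.39 to 0.66 and that of other pairs from -0.54 to 0.62. The best match had the same number in 10 of 30 cases, which was not tested against chance. With the number as a replicate block, 0 members were called in each comparison and 15 other genes were lower. A count model on the implied counts was not run, because 1 step of a column could not be shown to be 1 count. Nefh and other targets near the negative probe are limited by background.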
